A study of Mus musculus with 21 samples.

Results

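Germinal centre B cells of the light zone were compared with those of the dark zone in mice with a B cell deletion of Ptbp1, the gene of an RNA-binding protein. The comparison rests on 8 of the 21 samples of the series, 4 light zone and 4 dark zone mRNA libraries of the conditional knockout (cKO), chosen by zone and genotype in their labels and paired by pool. Each of 4 pools, made from 3 to 5 mice of 1 sex, gave 1 library per zone, with males in pools 1 and 2 and females in pools 3 and 4, and every pool was sorted on a day of its own. The cKO mice were C57BL/6 with genotype CD79acre/+Ptbp1fl/fl, so both zones carried loxP-flanked Ptbp1 alleles and a Cre gene in 1 Cd79a allele, which acts throughout the B lineage. The control mice, CD79a+/+Ptbp1fl/fl, gave 4 light zone and 4 dark zone libraries sorted on the same days, and are used for the same zone comparison. All mice had received alum-precipitated NP-KLH, a hapten on a protein carrier, 7 days before sorting. Cells bearing IgD, CD3e, Gr1 or Ter119 had been depleted, and no source used here gives the surface markers of the zone gates.

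In a germinal centre, B cells divide and mutate their antibody genes in the dark zone, then move to the light zone, where they capture antigen with the mutated receptor and present it to T follicular helper cells. Dark zone cells are held in place by the chemokine receptor CXCR4, and light zone cells are known for CD83, CD86 and for signalling through the B cell receptor and CD40. Cells that receive help switch on MYC and return to the dark zone to divide, and others leave as memory or plasma cells. PTBP1 binds pyrimidine-rich RNA and regulates splicing, and the study, by its title, concerns a need for PTBP1 in this selection.

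Gene counts summed to between 26823882 and 34240096 per cKO library, and 17813 to 18868 genes had a count. Of the dark zone libraries, those of pools 2 and 3 stood apart. Immunoglobulin genes held 8.93% and 9.44% of their gene counts, against 2.75% and 3.26% in the dark zone libraries of pools 1 and 4 and 2.04% to 2.94% in the 4 light zone libraries. The plasma cell and immunoglobulin results are given with and without these pools. Levels below are in CPM, counts scaled to library size and composition, differences are light minus dark zone in log2 units ± SE, and a gene was called when edgeR's quasi-likelihood test with pool as a block gave a Benjamini-Hochberg adjusted p under 0.05 over 15789 genes.

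The zone labels held for the genes that define them. Cxcr4 (GRCm38 chromosome 1, 128588199 to 128592299) was at 34.2, 38, 31 and 33.8 CPM in the light zone libraries of pools 1 to 4, against 74.9, 78.1, 73.7 and 75.8 CPM in their dark zone libraries. Cd83 (GRCm38 chromosome 13, 43785112 to 43803133), an immunoglobulin-family membrane protein, was at 1235, 1399, 1272 and 1301 CPM in light zone and 238, 323, 323 and 285 CPM in dark zone libraries. Cd86 (GRCm38 chromosome 16, 36568956 to 36666158), a costimulatory ligand for T cells, stood at 304, 347, 337 and 350.0 CPM in light zone and 117, 145, 123 and 148 CPM in dark zone libraries. For none of these 3 genes did the groups overlap, and a gene used for the gate would differ by the sort itself. The differences were -1.15 ± 0.07, 2.16 ± 0.08 and 1.33 ± 0.06, with edgeR adjusted p-values of 8.26e-06, 1.18e-06 and 1.42e-06. In these bulk libraries, a smaller share of cells with a transcript and less of it per cell cannot be told apart.

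Germinal centre B cell genes were present in both zones. Bcl6, the repressor that defines the germinal centre B cell, was at 187, 242, 288 and 325 CPM in light zone and 218, 267, 263 and 267 CPM in dark zone libraries. The groups overlapped, and Bcl6 was not called (0.01 ± 0.09, edgeR adjusted p = 0.944). Fas, a death receptor, was at 168, 161, 195 and 216 CPM in light zone and 115, 119.5, 150.4 and 119.7 CPM in dark zone libraries, a rise of 0.55 ± 0.09 (edgeR adjusted p = 0.00212). Pax5, which keeps B cell identity, was not called (-0.22, edgeR adjusted p = 0.089).

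Ptbp1 itself (GRCm38 chromosome 10, 79854432 to 79864435), the gene the cKO targets, did not differ past the threshold between the zones. It was at 94.4, 96.2, 121 and 82.5 CPM in light zone and 114, 100.0, 107 and 92.1 CPM in dark zone cKO libraries, which overlapped (-0.08 ± 0.07, edgeR adjusted p = 0.545). In control mice it was at 367, 353, 419.8 and 388 CPM in light zone and 416, 424, 448 and 486 CPM in dark zone libraries, so every cKO library of either zone lay below every control library. Gene counts do not tell transcripts without the deleted part from intact ones, and no source used here says which part is deleted. Cd79a, the B cell receptor chain whose gene holds Cre, was higher in light zone cells (0.51 ± 0.06, edgeR adjusted p = 0.000417), at 1623, 1504, 1112 and 1190.2 CPM against 987, 1087, 829.7 and 892 CPM in dark zone cells.

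Across all genes, 2810 of 15789 tested (17.8%) were called between the zones of cKO mice. Of these, 1390 (8.8% of genes tested) were higher and 1420 (8.99%) lower in light zone cells, and 544 differed at least 2-fold, 303 higher and 241 lower. The sign was the same in all 4 pools for 2751 of the called genes, and the CPM values of the zones did not overlap for 2259 of all genes tested (14.3%). The median difference over all genes was -0.0069. The count fell to 1710 without pool 2 and to 1436 without the replicate block, 1408 of which were among the 2810. A fit on the 8 cKO libraries alone called 2079 genes.

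Gene lists of germinal centre programmes sorted by zone. The plot of called members by list shows that light zone, CD40 and NF-kB, B cell receptor and antigen presentation genes were mostly higher in light zone cells, while dark zone, mitosis, DNA replication and respiration genes were mostly lower. Lists overlap in members, and each is described below by its counts and its median, to be read against the 8.8%, 8.99% and -0.0069 of all genes. Fits with fewer pools or no replicate block also called fewer genes in all. Without the block 776 of 15789 genes were higher and 660 lower. Without pools 2 and 3, 437 of 16617 were higher and 368 lower.

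**Figure D1:**
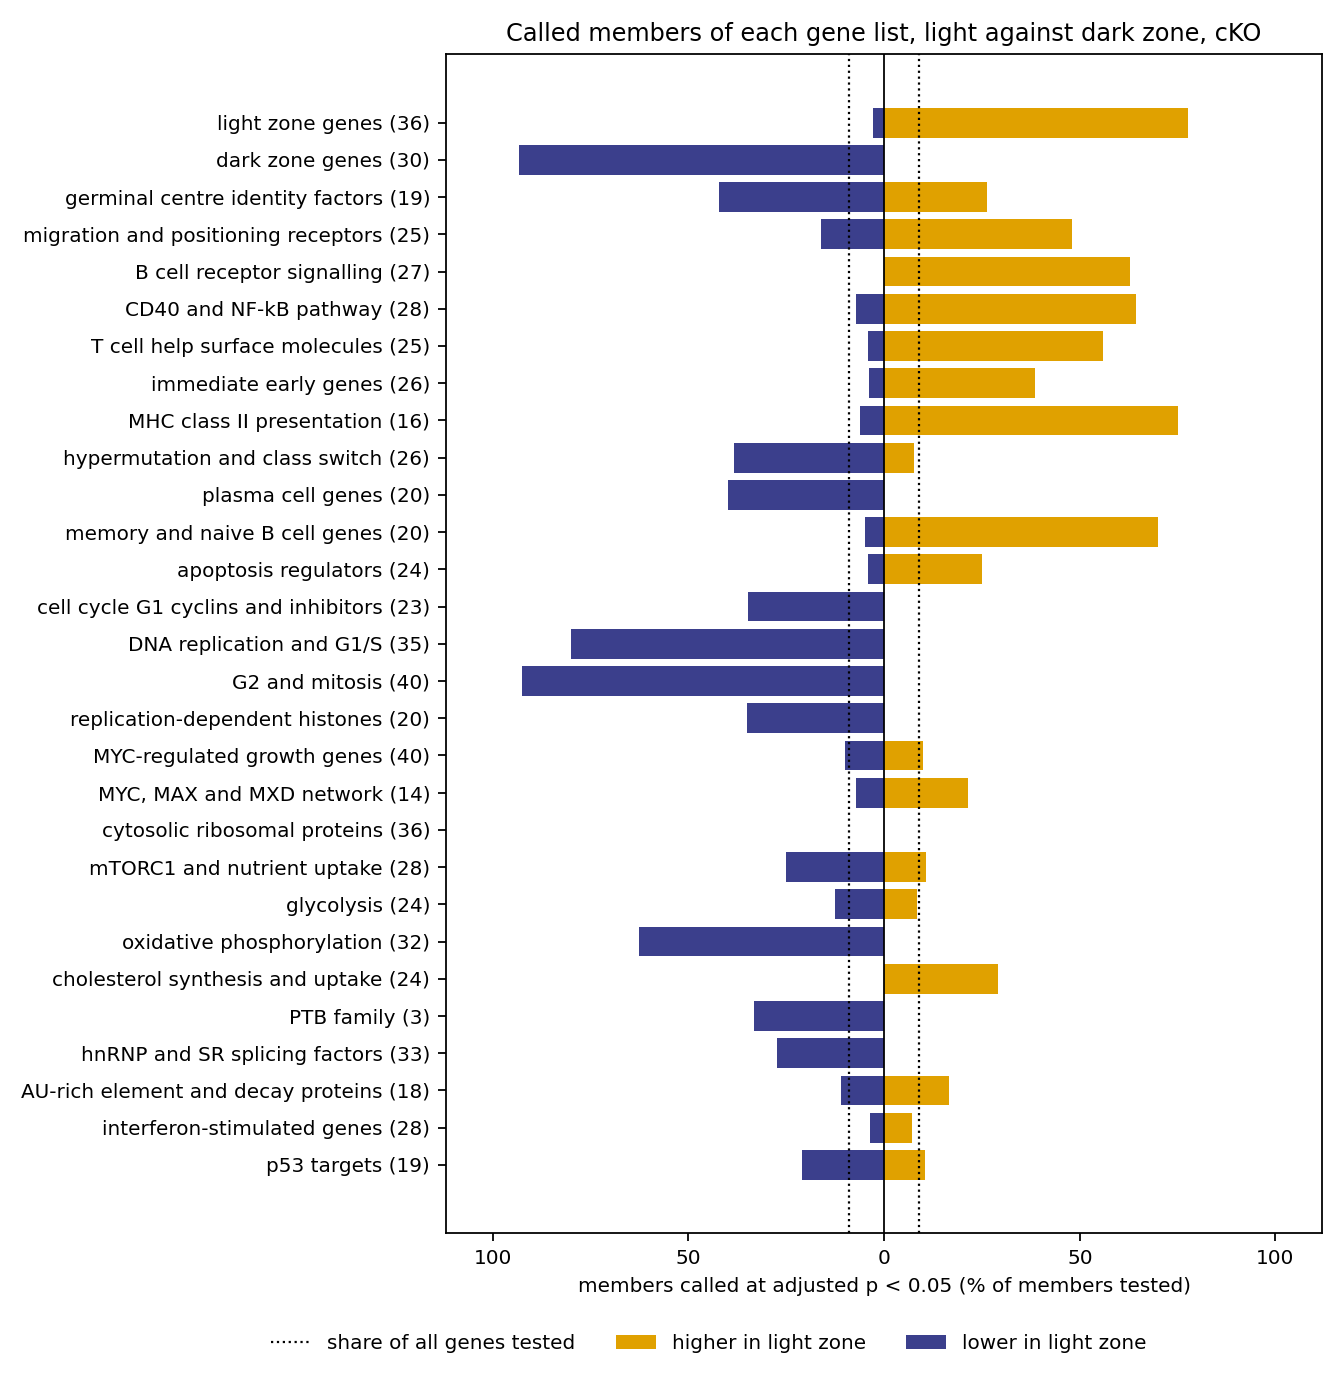
Share of the members of each gene list that were called higher (right, gold) or lower (left, blue) in light zone than in dark zone cKO cells, as a percentage of the members tested (their number in brackets). Dotted lines mark the shares over all genes tested, 8.8% higher and 8.99% lower, and 28 of 30 dark zone genes and 37 of 40 mitosis genes lie on the left.

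Of 36 light zone genes, 28 were higher in light zone cKO cells, 1 was lower and 7 were not called, with a median of 1.15. In the pools the list's median was 1.20, 0.98, 1.19 and 1.08. Fcer2a, the low-affinity IgE receptor CD23, was at 1372, 1441, 1135 and 1107 CPM in light zone and 416, 495, 293 and 320.4 CPM in dark zone libraries. Slamf1, a self-binding receptor used in T cell contacts, was at 168, 174, 182 and 146 CPM in light zone and 49.3, 68.1, 60.6 and 50.7 CPM in dark zone libraries. Neither gene's groups overlapped, and the rises were 1.75 ± 0.08 and 1.56 ± 0.08 (edgeR adjusted p = 1.97e-06 and 4.25e-06). The exception was Cd44, an adhesion receptor for hyaluronan, which was lower (-0.53 ± 0.06, edgeR adjusted p = 0.000257). In control mice, where 7.56% of genes tested were higher and 6.28% lower, 29 of these genes were higher and 1 lower, with a median of 1.24.

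Of 30 dark zone genes, 28 were lower in light zone cKO cells and 0 higher, with a median of -0.91. Gcsam, a germinal centre protein that restrains cell motility, was at 149.5, 96.9, 212 and 317 CPM in light zone and 524, 446, 709 and 638 CPM in dark zone libraries. Neil1, a DNA glycosylase of base excision repair, was at 352, 311, 406 and 611 CPM in light zone and 851, 790.4, 791 and 1072 CPM in dark zone libraries. Every light zone library lay below every dark zone library for both, and they differed by -1.69 ± 0.17 and -1.10 ± 0.10 (edgeR adjusted p = 0.000161 and 7.64e-05). Foxo1, a transcription factor needed for the dark zone, was not called (-0.16, edgeR adjusted p = 0.062). The list's medians were -1.10, -1.22, -0.66 and -0.51 in pools 1 to 4, and 16 of its genes were lower without the replicate block. In control mice 25 were lower and 0 higher, with a median of -0.73.

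**Figure D2:**
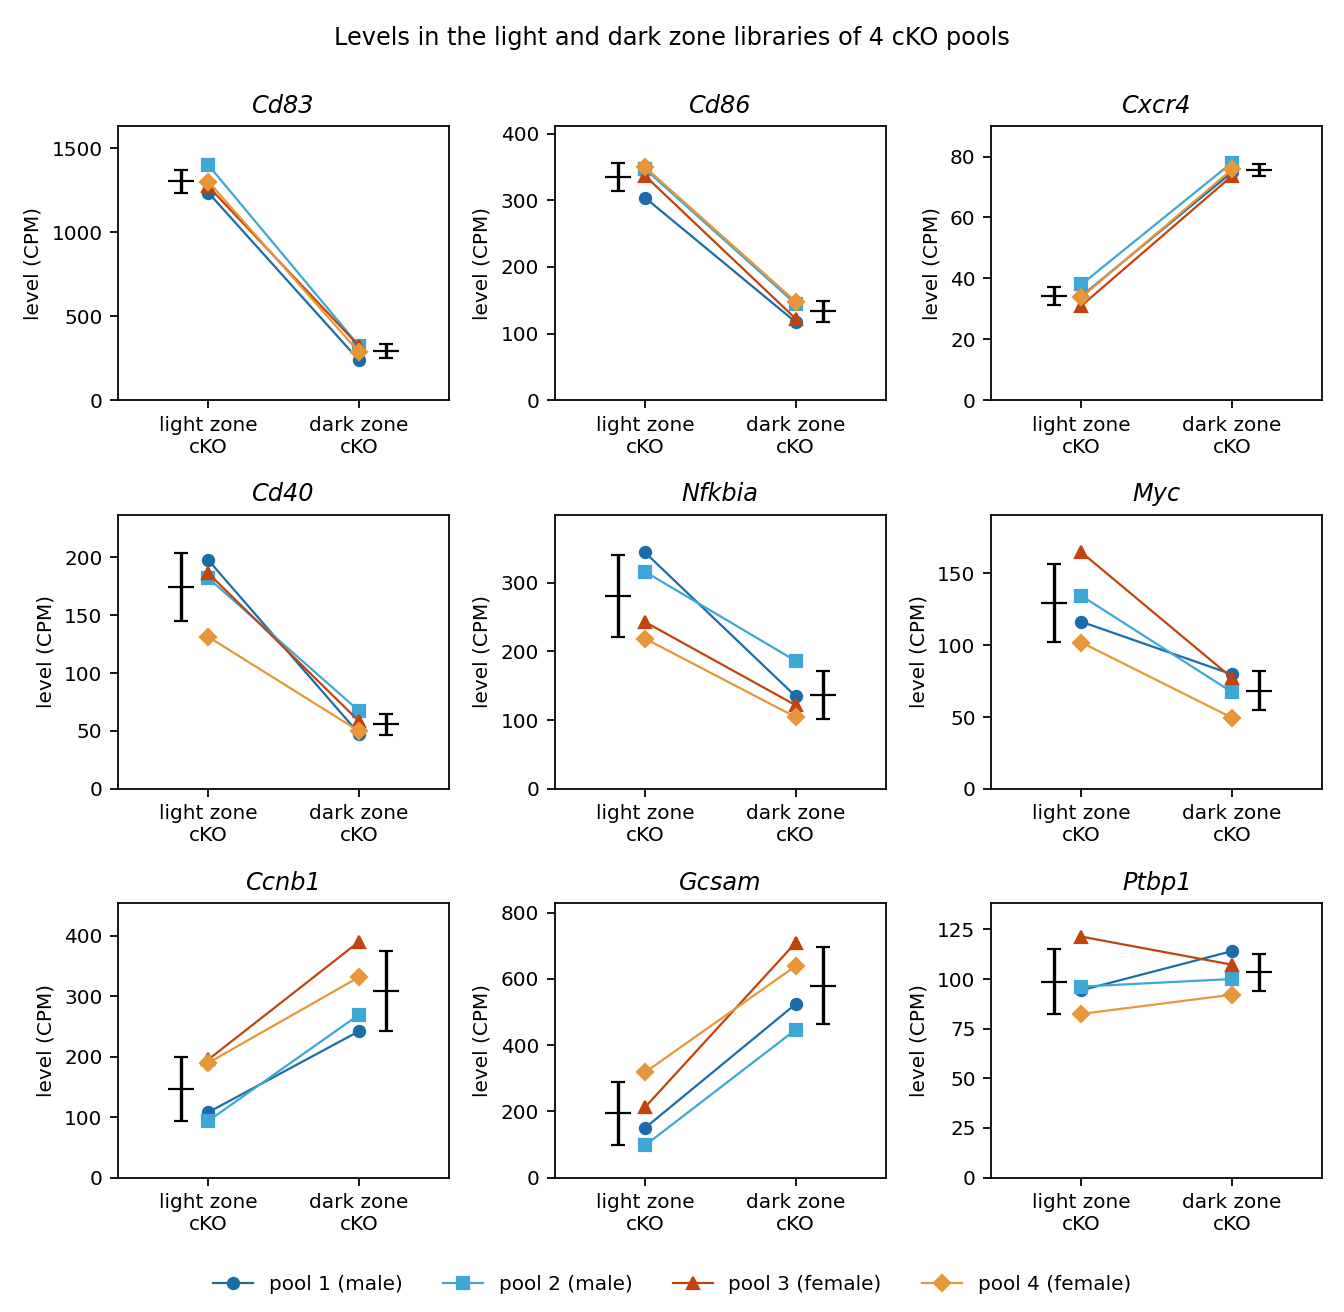
Levels of 9 genes in CPM in the light zone and the dark zone library of each cKO pool, joined by a line, with the mean and SD of the 4 libraries in black. Cd83, Cd86, Cd40, Nfkbia and Myc are higher in light zone cells in every pool, Cxcr4, Ccnb1 and Gcsam are lower in every pool, and Ptbp1 overlaps between the zones.

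Genes of the dividing phase of the cell cycle were lower in light zone cells. Of 40 genes of G2 and mitosis, 37 were lower in light zone cKO cells and 0 higher, and their differences ran from -1.39 to -0.51. Ccnb1, the cyclin that drives entry into mitosis, was at 108, 93.9, 195 and 189.7 CPM in light zone and 242, 269, 389.9 and 331 CPM in dark zone libraries. Cdc25b, a phosphatase that activates the mitotic kinase CDK1, was at 158, 161, 212 and 261 CPM in light zone and 485, 396, 451 and 512 CPM in dark zone libraries. Cenpa, the histone that marks centromeres, was at 122, 86.9, 153 and 186 CPM in light zone and 257, 260.5, 274 and 338 CPM in dark zone libraries. In all 3 the dark zone libraries were higher without overlap, and the differences were -1.12 ± 0.11, -1.24 ± 0.10 and -1.09 ± 0.13 (edgeR adjusted p = 0.000141, 4.04e-05 and 0.000404). The 3 members not called, Pttg1, Kif4 and Kif11, were at -0.30, -0.56 and -0.55. The list's median was -0.83, and by pool it was -1.08, -1.21, -0.60 and -0.39, larger in both male pools than in both female pools. Sex and sort day cannot be told apart here. The control medians by pool were -0.70, -0.82, -0.35 and -0.50, with 25 genes lower and 0 higher. Without the replicate block 16 of the 40 were lower in cKO, and without pools 2 and 3 the count was 21.

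The promoters of the 4 most abundant called mitosis genes with a RefSeq entry are described because genes of this phase moved together. RefSeq (GRCm38.p6) windows of 250 bases before and 50 after the start were searched on both strands for TTTGAA, the cell cycle homology region through which many mitotic genes are repressed outside division, and CCAAT, the box bound by NF-Y. Of 33 mitosis genes with a window, 24 held TTTGAA and 27 CCAAT, against 17.8% and 37.4% of 32544 windows of that length. A match is a description of the letters and not a site. The windows below are on the gene's strand, 5′ to 3′, with matches to either motif in capitals. Top2a encodes the topoisomerase that untangles chromosomes, Mki67 the proliferation marker Ki-67 and Cdc20 an activator of the ligase that ends mitosis.
Top2a (chr11:99024140-99024439, minus strand): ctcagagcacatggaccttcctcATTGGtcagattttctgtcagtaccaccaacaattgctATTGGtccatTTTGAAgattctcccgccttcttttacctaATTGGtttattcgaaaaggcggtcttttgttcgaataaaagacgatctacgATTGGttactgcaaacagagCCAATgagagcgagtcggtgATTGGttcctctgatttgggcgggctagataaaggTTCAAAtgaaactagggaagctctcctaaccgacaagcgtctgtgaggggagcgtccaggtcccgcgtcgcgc
Mki67 (chr7:135716330-135716629, minus strand): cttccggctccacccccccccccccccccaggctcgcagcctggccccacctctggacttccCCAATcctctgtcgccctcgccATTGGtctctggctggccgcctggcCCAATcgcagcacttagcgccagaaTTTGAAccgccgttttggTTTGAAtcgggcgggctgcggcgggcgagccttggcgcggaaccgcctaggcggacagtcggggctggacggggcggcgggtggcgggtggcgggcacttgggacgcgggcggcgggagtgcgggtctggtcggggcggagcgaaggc
Cdc20 (chr4:118437294-118437593, minus strand): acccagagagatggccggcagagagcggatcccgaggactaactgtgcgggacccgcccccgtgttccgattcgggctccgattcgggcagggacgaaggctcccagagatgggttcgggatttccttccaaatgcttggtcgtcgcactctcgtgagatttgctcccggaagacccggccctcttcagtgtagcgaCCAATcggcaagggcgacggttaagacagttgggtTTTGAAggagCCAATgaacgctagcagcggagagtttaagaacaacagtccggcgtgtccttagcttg
Top2a held 2 and Mki67 2 TTTGAA matches, and Cdc20 held 1. CCAAT matched 6 times in Top2a, 3 times in Mki67 and 2 times in Cdc20. The window of Cdc25b, the fourth, held 1 CCAAT and no TTTGAA. The levels of these genes were as follows. Top2a was at 340.0, 309, 605 and 508 CPM in light zone and 597, 541, 702 and 587 CPM in dark zone libraries, with pool 3 of the light zone inside the dark zone range. Mki67 was at 360.1, 249, 422 and 443 CPM in light zone and 755, 605, 541 and 575 CPM in dark zone libraries, and Cdc20 at 162, 124, 267 and 316 CPM against 427, 418, 464 and 559.7 CPM. Cdc20 and Mki67 did not overlap between the zones, and the differences were -1.19 ± 0.15 for Cdc20, -0.77 ± 0.15 for Mki67 and -0.51 ± 0.12 for Top2a (edgeR adjusted p = 0.000546, 0.00653 and 0.0159). The Top2a call was lost without pool 1 (adjusted p = 0.0636), without pool 2 (adjusted p = 0.0846) and without the replicate block (adjusted p = 0.145).

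DNA replication genes were lower in light zone cells too. Of 35 genes of DNA replication and the G1/S transition, 28 were lower and 0 higher, with a median of -0.43, and 7 were lower in control mice (median -0.20). Mcm6, a subunit of the replicative helicase, was at 459, 529, 917 and 739 CPM in light zone and 955, 814, 1189 and 1039 CPM in dark zone libraries, where pool 3 of the light zone lay above pool 2 of the dark zone. Mcm6 (-0.64 ± 0.10, edgeR adjusted p = 0.00158) and Orc6, a subunit of the origin recognition complex (-0.53 ± 0.07, edgeR adjusted p = 0.000612), fell in each pool. Pcna, the clamp of the DNA polymerases, was at -0.37 (edgeR adjusted p = 0.00913, and 0.0542 without pool 2). The list's medians in the pools were -0.58, -0.52, -0.34 and -0.20. The count of lower genes dropped to 12 without pool 2, to 5 without pools 2 and 3 and to 3 without the replicate block, under which Mcm6 (adjusted p = 0.0739) and Pcna (adjusted p = 0.181) were not called.

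**Figure D3:**
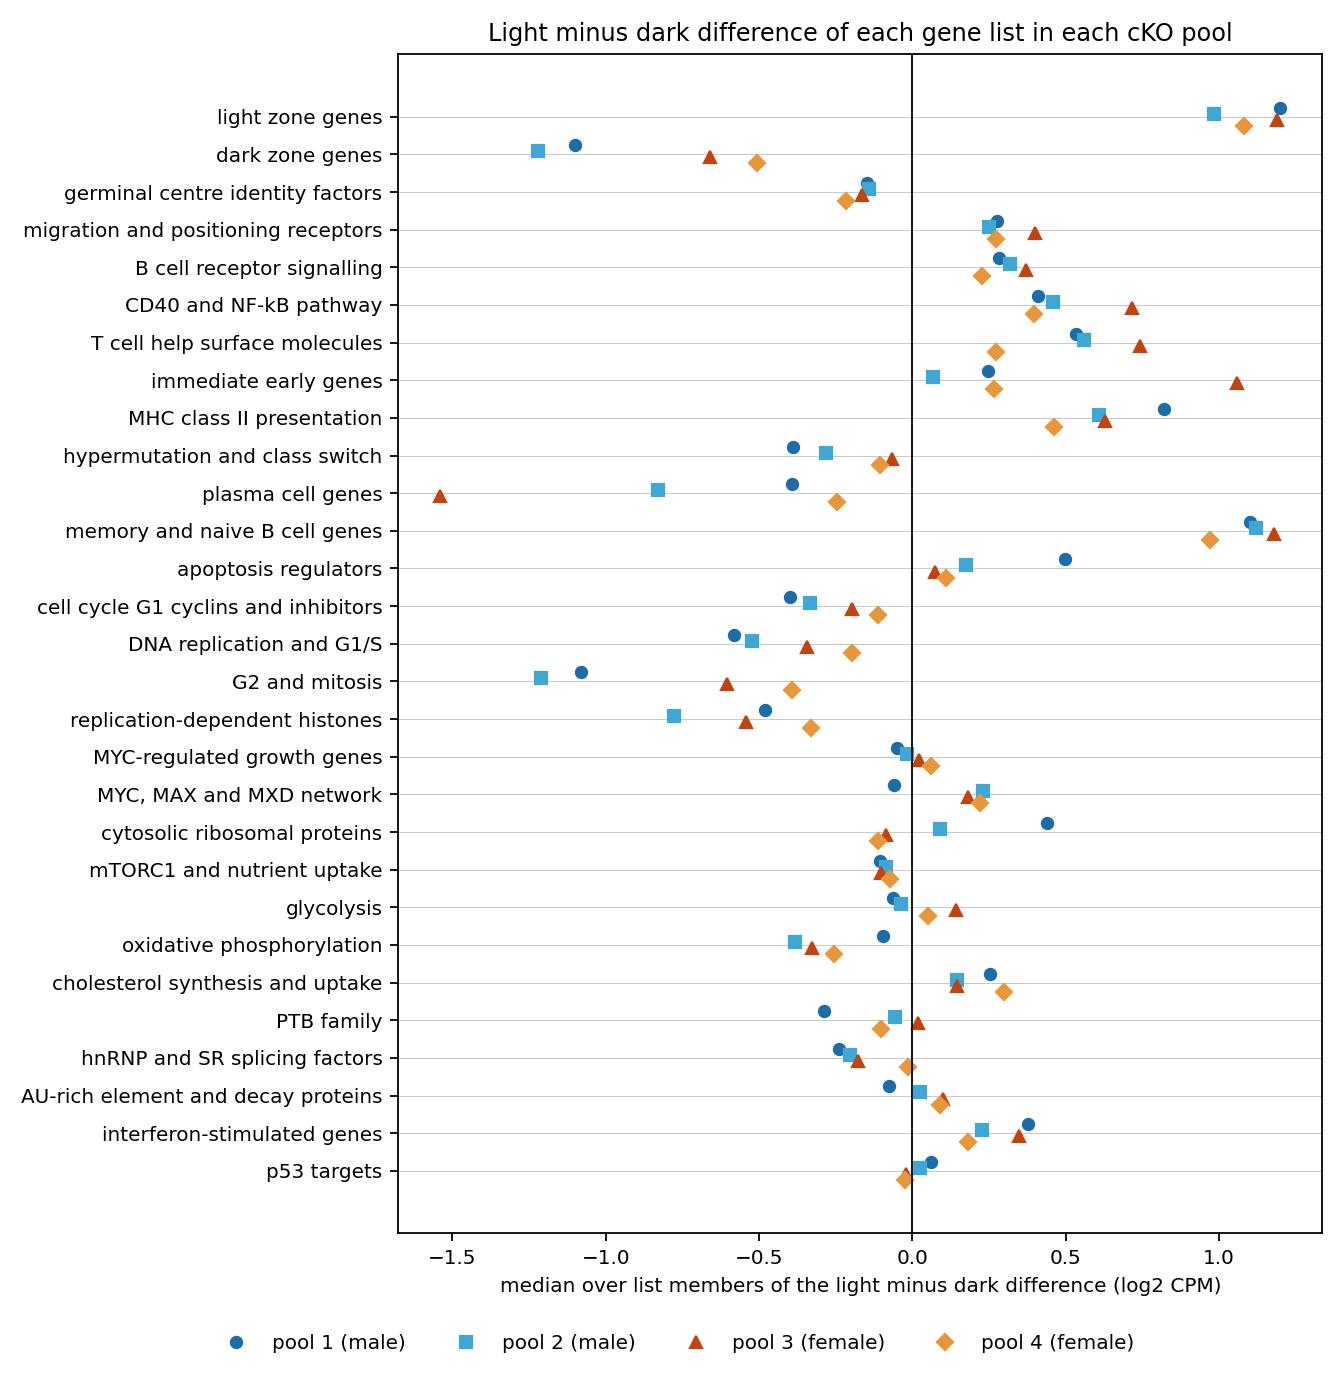
Median over the members of each gene list of the light minus dark zone difference in log2 CPM, with 1 point for each of the 4 cKO pools. Light zone genes lie between 0.98 and 1.20 in all 4 pools, mitosis genes at -1.08 and -1.21 in the male pools and at -0.60 and -0.39 in the female pools, and plasma cell genes at -0.83 and -1.54 in pools 2 and 3.

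Genes of the CD40 and NF-kB pathway, which carries the signal of T cell help, were mostly higher in light zone cells. Of 28 genes, 18 were higher and 2 lower, with a median of 0.55, and in control mice 15 were higher and 1 lower (median 0.40). Cd40, the receptor for the T cell ligand, was at 197, 182, 186 and 131 CPM in light zone and 47.6, 67.3, 58.4 and 49.9 CPM in dark zone libraries. Nfkbid, a nuclear regulator of NF-kB, was at 87.3, 103, 57.1 and 41.5 CPM in light zone and 27.3, 32.2, 12.7 and 10.9 CPM in dark zone libraries. Both were higher without overlap (1.64 ± 0.10 and 1.85 ± 0.12, edgeR adjusted p = 1.05e-05 and 1.44e-05), as was the inhibitor gene Nfkbie (0.90 ± 0.07, edgeR adjusted p = 5.63e-05). The 2 lower genes were the adaptors Traf5 (-0.38 ± 0.06, edgeR adjusted p = 0.00119, and 0.0527 without the replicate block) and Traf6 (-0.33 ± 0.09, edgeR adjusted p = 0.036). Traf6 lost its call without the replicate block (adjusted p = 0.0517) and without pool 1, 2 or 3 in turn (adjusted p = 0.115, 0.0767 and 0.0988), and without control pool 1, 3 or 4 (adjusted p = 0.0503, 0.0505 and 0.0574). The rise of this list was measured in each pool, with medians of 0.41, 0.46, 0.72 and 0.40, and 11 genes were higher without pools 2 and 3.

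For this list too the promoters of the 4 most abundant called genes with a RefSeq window were read, since NF-kB acts on its own regulators. The kB motif was searched on both strands as GGGA or GGGG, 2 free letters and then TTCC, and 9 of 23 members with a window held it, against 2.93% of the 32544 windows. Matches stand in capitals below, in the gene's strand. Ltb encodes lymphotoxin beta, Nfkbia the main inhibitor that holds NF-kB in the cytoplasm, and Nfkb2 the NF-kB subunit of the non-canonical pathway. The Nfkb2 window is that of 1 of its 3 listed starts, downstream of the gene's first base at 46300994.
Ltb (chr17:35194257-35194556, plus strand): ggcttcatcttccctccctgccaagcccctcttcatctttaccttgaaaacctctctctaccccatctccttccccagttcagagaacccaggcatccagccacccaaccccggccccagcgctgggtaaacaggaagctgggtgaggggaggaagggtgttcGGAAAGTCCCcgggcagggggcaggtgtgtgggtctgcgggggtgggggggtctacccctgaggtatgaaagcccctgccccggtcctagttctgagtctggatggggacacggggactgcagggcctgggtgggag
Nfkbia (chr12:55492598-55492897, minus strand): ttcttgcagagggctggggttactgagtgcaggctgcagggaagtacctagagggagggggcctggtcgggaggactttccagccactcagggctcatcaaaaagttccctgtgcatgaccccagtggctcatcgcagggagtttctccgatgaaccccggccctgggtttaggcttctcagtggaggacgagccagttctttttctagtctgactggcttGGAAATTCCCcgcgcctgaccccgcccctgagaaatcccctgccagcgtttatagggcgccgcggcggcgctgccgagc
Nfkb2 (chr19:46304487-46304786, plus strand): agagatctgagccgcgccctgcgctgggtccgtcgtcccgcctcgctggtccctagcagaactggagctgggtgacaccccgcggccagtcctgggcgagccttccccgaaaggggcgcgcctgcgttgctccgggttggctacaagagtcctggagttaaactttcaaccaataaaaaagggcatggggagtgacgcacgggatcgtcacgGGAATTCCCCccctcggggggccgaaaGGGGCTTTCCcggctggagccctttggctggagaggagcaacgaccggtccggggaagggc
Ltb and Nfkbia held 1 match each and Nfkb2 2. The window of Traf1, the fourth, held none of these letters. In light zone libraries Nfkb2 was at 273, 264, 258 and 207 CPM, against 105, 110.0, 93.3 and 67 CPM in dark zone libraries. Nfkbia was at 344, 316, 243 and 219 CPM in light zone and 135, 186, 122 and 104 CPM in dark zone libraries, and Ltb at 1296, 1044, 931 and 1133 CPM against 705, 721, 560.0 and 866 CPM. The groups of these 3 genes did not overlap, with rises of 1.43 ± 0.08 for Nfkb2, 1.04 ± 0.10 for Nfkbia and 0.63 ± 0.07 for Ltb (edgeR adjusted p = 5.66e-06, 0.000102 and 0.000315). Traf1, an adaptor of tumour necrosis factor receptors, rose by less (0.35 ± 0.09, edgeR adjusted p = 0.0214) and was not called without pool 1, 2 or 3 (adjusted p = 0.0557, 0.0832 and 0.0989) or without the replicate block (adjusted p = 0.0599).

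Transcripts of the B cell receptor pathway and its coreceptors were higher in light zone cells for 17 of 27 genes and lower for 0, with a median of 0.28. Cr2, a complement receptor that eases B cell activation, was at 386, 404, 375 and 287 CPM in light zone and 84.2, 115, 75.8 and 54 CPM in dark zone libraries. Cd72, an inhibitory coreceptor, was at 463, 429, 264 and 249 CPM in light zone and 139.7, 149, 99 and 85.3 CPM in dark zone libraries, and Cd22, another inhibitor of the receptor, at 1273, 1679, 1476 and 1385 CPM against 669, 732, 580.1 and 727 CPM. All 3 were higher without overlap (2.18 ± 0.09, 1.55 ± 0.08 and 1.10 ± 0.08, edgeR adjusted p = 1.42e-06, 2.91e-06 and 1.81e-05). The control mice had 13 genes higher and 1 lower (median 0.20). The count in cKO was 11 without the replicate block and 8 without pools 2 and 3.

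Early response genes, which receptor signals switch on within a short time, were higher for 10 of 26 members and lower for 1, with a median of 0.49. Egr1, a zinc finger factor, was at 107, 107, 83.5 and 67.4 CPM in light zone and 22.8, 45.6, 23.1 and 8.66 CPM in dark zone libraries, and its relative Egr2 was at 25.6, 25.4, 14.5 and 11.7 CPM against 1.62, 5.52, 4.48 and 0.982 CPM. Both stood apart between the zones in every pool (2.04 ± 0.24 and 2.79 ± 0.37, edgeR adjusted p = 0.000432 and 0.000739). Junb, an AP-1 subunit, was higher within each pool (0.79 ± 0.10, edgeR adjusted p = 0.00049), although its male and female pools overlapped across zones and the call was lost without the replicate block (adjusted p = 0.223). Zfp36l1, which destabilises AU-rich mRNAs, rose by 0.71 ± 0.06 (edgeR adjusted p = 6.54e-05). The lower member was Dusp5, a phosphatase of the kinase ERK (-0.85 ± 0.12, edgeR adjusted p = 0.000959). List medians in the pools were 0.24, 0.07, 1.06 and 0.27, and pool 3 was the highest. Over the list the median was 0.14 without pool 3 and 0.27 without the replicate block. In control mice 12 were higher and 1 lower, with a median of 0.72.

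Transcripts of antigen presentation on MHC class II, by which B cells solicit T cell help, were higher in light zone cells for 12 of 16 genes and lower for 1 (median 0.64). Ifi30, a reductase that unfolds antigens in lysosomes, was at 447, 417, 356 and 285 CPM in light zone and 137, 162, 139 and 102 CPM in dark zone libraries. H2-Oa, a chain of the regulator H2-O, was at 265, 247, 190.1 and 184 CPM in light zone and 90.9, 114, 75.5 and 84.8 CPM in dark zone libraries, and H2-Aa, a chain of a class II molecule, at 4705, 4785, 4099 and 4374 CPM against 2599, 3079, 2720.2 and 2731 CPM. The invariant chain Cd74, the most abundant gene of the list, averaged 21416 ± 2383 CPM in light zone and 11695 ± 1378 CPM in dark zone libraries (SD, n = 4 each). The groups of all 4 genes were apart, by 1.48 ± 0.07, 1.28 ± 0.09, 0.69 ± 0.05 and 0.87 ± 0.05 (edgeR adjusted p = 2.91e-06, 1.54e-05, 2.19e-05 and 9.29e-06). Lgmn, a lysosomal protease, was lower (-0.30 ± 0.07, edgeR adjusted p = 0.0158) but was not called without pool 1 or 2 (adjusted p = 0.0566 and 0.0744) or without the replicate block (adjusted p = 0.274). The count in control mice was 12 higher and 2 lower (median 0.60). Of 25 surface molecules and receptors of T cell help, 14 were higher and 1 lower. Among them was Icosl, the ligand of the T cell costimulator ICOS, at 183, 169.9, 150.4 and 148 CPM in light zone and 85.5, 86.3, 72.7 and 75.4 CPM in dark zone libraries (1.02 ± 0.06, edgeR adjusted p = 8.66e-06).

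Receptors that position cells in the follicle differed in both directions, with 12 of 25 higher and 4 lower in light zone cells (median 0.30). The counts were 6 higher and 3 lower without the replicate block, and 6 higher and 2 lower without pools 2 and 3. Cxcr5, which draws cells to follicles, was at 413, 385, 362 and 309.8 CPM in light zone and 172, 182, 170.3 and 174 CPM in dark zone libraries. Gpr183, the oxysterol receptor EBI2, was at 132, 170.3, 109 and 75 CPM in light zone and 40.2, 47.2, 46.7 and 32.5 CPM in dark zone libraries, and S1pr3, a receptor of sphingosine 1-phosphate, at 117, 149.7, 146 and 121 CPM against 33, 44.7, 45.2 and 28 CPM. Without overlap between the zones, the rises were 1.06 ± 0.07, 1.50 ± 0.12 and 1.84 ± 0.11 (edgeR adjusted p = 1.54e-05, 5.29e-05 and 8.66e-06). Ccr6, a chemokine receptor of light zone cells bound for memory, was at 93.4, 87.9, 30.4 and 26.8 CPM in light zone and 3.82, 6.09, 3.31 and 0.456 CPM in dark zone libraries. It was the largest rise of the genes named by size (4.21 ± 0.54, edgeR adjusted p = 0.00066), and both male pools were above both female pools in the light zone. S1pr2, which confines cells to the germinal centre, and Gna13, the G protein subunit it uses, were lower (-0.33 ± 0.06 and -0.37 ± 0.07, edgeR adjusted p = 0.00414 and 0.0059). S1pr2 was not called without the replicate block (adjusted p = 0.127).

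Transcription factors of germinal centre identity were divided, with 5 of 19 higher and 8 lower. Irf8 (0.37 ± 0.04, edgeR adjusted p = 0.000278), which is also active in dendritic cells, and Mef2c (0.44 ± 0.06, edgeR adjusted p = 0.000816), a factor of B cell proliferation, were higher. The coactivator Pou2af1 was at 1018, 1042, 1328 and 1479 CPM in light zone and 2032, 1803, 2394 and 1951 CPM in dark zone libraries, and Tcf3, the E protein E2A, at 366, 372, 393 and 429 CPM against 587, 528, 514 and 568 CPM. Neither overlapped, and they differed by -0.76 ± 0.09 and -0.50 ± 0.07 (edgeR adjusted p = 0.000419 and 0.00083).

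Of 26 genes of hypermutation and class switching, 10 were lower and 2 higher in light zone cells, with a median of -0.24. Hmces, which shields abasic sites in DNA, was at 256, 177, 308 and 409.6 CPM in light zone and 737, 611, 824 and 881 CPM in dark zone libraries. Polh, the polymerase eta that writes mutations at A:T pairs, was at 22, 32.5, 51.3 and 38.3 CPM in light zone and 64.8, 73.8, 92.7 and 87.2 CPM in dark zone libraries. Both were lower in light zone cells in every pool and without overlap (-1.46 ± 0.11 and -1.19 ± 0.15, edgeR adjusted p = 2.43e-05 and 0.000491). In control mice 7 were lower and 2 higher.

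Of 24 regulators of cell death, 6 were higher and 1 lower (median 0.22). Bcl2, which blocks mitochondrial apoptosis, was at 54.2, 55.9, 21 and 17.7 CPM in light zone and 21.9, 18.9, 8.07 and 7.15 CPM in dark zone libraries, with the light zone libraries of the female pools inside the dark zone range. It was higher in each pool (1.39 ± 0.16, edgeR adjusted p = 0.000372), and was not called without the replicate block (adjusted p = 0.115). Bid, a promoter of apoptosis, was higher without overlap at 301, 279.8, 355 and 305 CPM against 191, 186, 212 and 216 CPM (0.62 ± 0.05, edgeR adjusted p = 5.97e-05). Bcl2a1d, an anti-apoptotic relative of Bcl2 with near-identical copies, was higher by 1.55 ± 0.14 (edgeR adjusted p = 9.69e-05), and its reads are uncertain for that reason. Bcl2l11, which encodes the BH3 protein BIM, was lower at 40.4, 26.1, 38.6 and 44.6 CPM against 55.1, 69.5, 72.2 and 71.4 CPM in dark zone libraries (-0.86 ± 0.15, edgeR adjusted p = 0.0035).

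Genes of memory and naive B cells were higher in light zone cells for 14 of 20 members and lower for 1, with a median of 1.11. Hhex, a homeobox factor of memory B cell development, was at 93.3, 106, 59.3 and 46.4 CPM in light zone and 15, 21.9, 9.1 and 6.21 CPM in dark zone libraries. Its cofactor Tle3 was at 43.9, 55.9, 35.9 and 27.3 CPM in light zone and 21.7, 27.1, 16.1 and 11.8 CPM in dark zone libraries, and Cd38, a surface enzyme of follicular and memory B cells, at 188, 249, 119.6 and 138 CPM against 50.9, 75.2, 50.1 and 36.2 CPM. No groups overlapped for these genes (2.62 ± 0.18, 1.11 ± 0.09 and 1.70 ± 0.17, edgeR adjusted p = 2.08e-05, 5.31e-05 and 0.000135). Il9r, the interleukin-9 receptor, was higher in each pool (1.24 ± 0.19, edgeR adjusted p = 0.00154). Its groups overlapped, and it was not called without the replicate block (adjusted p = 0.0565). Nt5e, which encodes the ectoenzyme CD73, was lower at 9.96, 21.3, 27.9 and 26.8 CPM in light zone against 44.3, 55.6, 69.9 and 85 CPM in dark zone libraries (-1.62 ± 0.13, edgeR adjusted p = 5.21e-05). The count of higher genes in cKO was 8 without the replicate block and 8 without pools 2 and 3. In control mice 12 genes were higher and 1 lower (median 1.09). Markers of follicular and marginal zone B cells were also summed, although IgD-bearing cells, which include follicular B cells, had been depleted. They came to 3376, 3833, 2508 and 2299 CPM in light zone and 1261, 1694, 1021 and 913 CPM in dark zone libraries, with 9 of 12 genes higher. That count was 3 without the replicate block and 5 without pools 2 and 3. The 2 lists share genes, and the part of such cells in these differences was not tested.

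Plasma cell genes were lower in light zone cells for 8 of 20 members and higher for 0, with a median of -0.76, and the pool differences were largest in pools 2 and 3. Their summed level was 2783, 3504, 3868 and 3660.0 CPM in light zone libraries, against 4191, 11500.0, 14510.0 and 5202 CPM in dark zone libraries. Jchain, which joins the chains of secreted IgM and IgA, was at 856, 1484, 1706 and 1481 CPM in light zone and 1975, 7535, 9409 and 2479 CPM in dark zone libraries. Sdc1, the plasma cell marker CD138, was at 7.1, 16.6, 20.4 and 8.11 CPM in light zone and 16.4, 82.4, 107 and 21 CPM in dark zone libraries. In both genes the dark zone libraries of pools 2 and 3 were far above the others. The differences were -1.69 ± 0.30 and -1.84 ± 0.31 (edgeR adjusted p = 0.00377 and 0.0027), and without pools 2 and 3 they were -0.99 and -1.31 (adjusted p = 0.0769 and 0.105). Sdc1 was not called without the replicate block either (adjusted p = 0.0771). Slamf7, a receptor of the SLAM family, was lower in every pool, at 179, 166, 183 and 197 CPM against 278, 276, 353 and 275 CPM (-0.70 ± 0.07, edgeR adjusted p = 0.000216), and at -0.57 without pools 2 and 3 (adjusted p = 0.012). Xbp1, the factor of the secretory programme, and Irf4, which directs plasma cell fate, were at -0.81 and -0.09 and were not called (edgeR adjusted p = 0.0643 and 0.895). Without pools 2 and 3 they were at -0.17 and 0.29 (edgeR adjusted p = 0.774 and 0.827). Of 235 immunoglobulin genes, whose segments share sequence and are uncertain, 49 were lower and 0 higher, beside 8.99% lower over all genes tested. Without pools 2 and 3, 6 of 247 were lower and 2 higher, beside 368 lower and 437 higher of all 16617 genes tested. Leaving out pool 2 alone gave 23 lower of 239, beside 778 of all 15995 genes tested. Pool 3 alone gave 24 lower of 243, beside 981 of 16197. The fit without the replicate block gave 32 lower of 235, beside 660 of 15789. The count of lower plasma cell genes was 5 without pool 3, 4 without the replicate block and 1 without pools 2 and 3, where the list's median was -0.24. In control mice 3 were lower, with medians of -0.21, -0.24, -1.08 and -0.03 in pools 1 to 4.

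**Figure D4:**
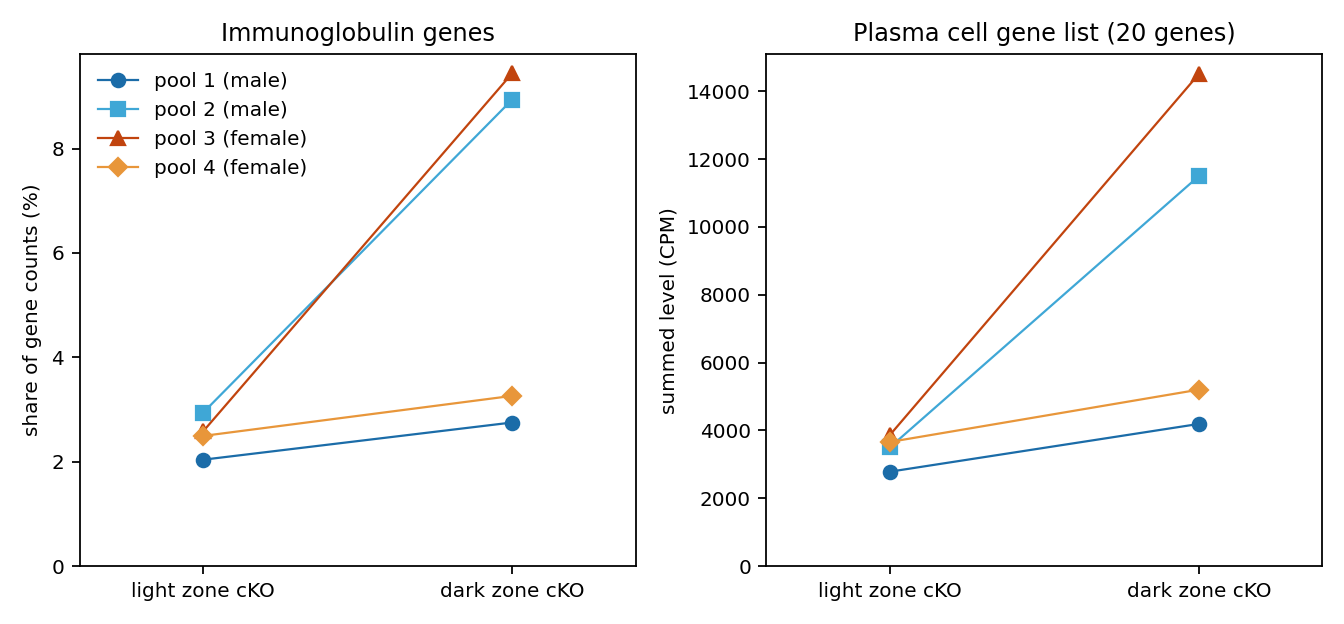
Share of gene counts held by immunoglobulin genes in percent (left) and summed level of the 20 plasma cell genes in CPM (right) in the light zone and the dark zone library of each cKO pool, joined by a line. The dark zone libraries of pools 2 and 3 reach 8.93% and 9.44% and 11500 and 14510 CPM, above the other 6 libraries.

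Metabolic lists were called in part. Of 32 oxidative phosphorylation genes, 20 were lower in light zone cells and 0 higher, with a median of -0.28 and pool medians of -0.09, -0.38, -0.33 and -0.26. Atp5b, a catalytic subunit of ATP synthase, was at 1502, 1429.5, 1827 and 1809 CPM in light zone and 2079, 1982, 2394 and 2279 CPM in dark zone libraries (-0.42 ± 0.05, edgeR adjusted p = 0.000261). Sdhb, a subunit of succinate dehydrogenase, was at 308, 271, 316 and 338 CPM in light zone and 383, 396, 473 and 446 CPM in dark zone libraries (-0.46 ± 0.05, edgeR adjusted p = 0.000408). For both, every light zone library was below every dark zone library. Transcripts of the mitochondrial genome held 1.57%, 1.15%, 0.76% and 0.70% of gene counts in the light zone libraries of pools 1 to 4 and 1.11%, 0.74%, 0.58% and 0.53% in the dark zone libraries, a higher share in the light zone of each pool, whose part in the result was not tested. The count of lower genes was 9 without pool 2, 11 without pool 3 and 8 without the replicate block, and 8 genes were lower in control mice. Of 24 genes of cholesterol synthesis and uptake, 7 were higher in light zone cKO cells and 0 lower (median 0.25), with 4 higher without pool 4. The control mice had 16 higher and 1 lower (median 0.48). Srebf2, the transcription factor of sterol synthesis, was at 514, 492, 492 and 417 CPM in light zone and 358, 365, 319 and 301 CPM in dark zone libraries (0.51 ± 0.06, edgeR adjusted p = 0.000263), and Dhcr7, which makes cholesterol from its last precursor, rose by 0.58 ± 0.11 (edgeR adjusted p = 0.00552).

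Myc, which drives growth after selection, was at 116, 134, 165 and 102 CPM in light zone and 79.7, 67.3, 77.2 and 49.5 CPM in dark zone cKO libraries. It was higher without overlap (0.92 ± 0.09, edgeR adjusted p = 0.000125) in every pool. The MYC antagonist gene Mxd4 was higher too (0.99 ± 0.12, edgeR adjusted p = 0.000548). Of 40 growth genes regulated by MYC, 4 were higher and 4 lower, a share near that of all genes, with a median of 0.05. In control mice 19 were higher and 0 lower, with a median of 0.25. Medians in the pools were -0.05, -0.02, 0.02 and 0.06 in cKO and 0.19, 0.24, 0.28 and 0.18 in control mice, and these ranges did not overlap. The difference between genotypes had an unadjusted p under 0.05 for 12 of the 40 genes, against 1013 of 15789 genes in all, and passed adjustment for 0. Pes1, of ribosome assembly, was higher at 127, 140.3, 148 and 117 CPM in light zone against 95.6, 103, 102 and 103 CPM in dark zone cKO libraries (0.40 ± 0.07, edgeR adjusted p = 0.00311). Odc1, the first enzyme of polyamine synthesis, was lower in each cKO pool (-0.23 ± 0.05, edgeR adjusted p = 0.0144, and 0.0765 without pool 2 and 0.306 without the replicate block) and was not called in control mice (0.14, edgeR adjusted p = 0.125).

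Of 28 genes of mTORC1 signalling and nutrient uptake, 7 were lower and 3 higher in light zone cKO cells, with a median of -0.07. Psat1, of serine synthesis, was at 102, 91.2, 148 and 116 CPM in light zone and 150.1, 133, 217 and 145 CPM in dark zone libraries, and Asns, which makes asparagine, at 9.78, 18.2, 29.2 and 19.8 CPM against 23.5, 28.6, 46.2 and 32.3 CPM. Both were lower in each pool, but the groups overlapped (-0.49 ± 0.06 and -0.82 ± 0.11, edgeR adjusted p = 0.000399 and 0.0009), and neither was called without the replicate block (adjusted p = 0.0725 and 0.134). Shmt2, a mitochondrial enzyme of folate metabolism, was lower (-0.43 ± 0.07, edgeR adjusted p = 0.00296). Among the higher genes was Ddit4, an inhibitor of mTORC1 (1.68 ± 0.23, edgeR adjusted p = 0.00101). Of 24 glycolysis genes, 2 were higher and 3 lower. Aldoc, an aldolase, was at 30.1, 32.9, 24.7 and 24.7 CPM in light zone and 4.83, 5.4, 7.11 and 4.84 CPM in dark zone libraries (2.35 ± 0.17, edgeR adjusted p = 2.53e-05), and the glucose transporter gene Slc2a3 rose by 0.85 ± 0.15 (edgeR adjusted p = 0.00398). Of 36 cytosolic ribosomal protein genes, 0 were called by edgeR in either direction, and their median was 0.080, with pool medians from -0.11 to 0.44.

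Genes for RNA-binding proteins, the class of the deleted factor, were read next. Ptbp2, the paralogue that is spliced into a stable mRNA when PTBP1 is missing elsewhere, was at 126, 143, 186 and 182 CPM in light zone and 195, 182, 290.4 and 195 CPM in dark zone cKO libraries. The groups overlapped, and it was lower at the edge of the threshold (-0.43 ± 0.13, edgeR adjusted p = 0.0482). Without pool 1, 2 or 3 in turn its adjusted p was 0.152, 0.115 and 0.182, without control pool 2 or 4 0.0604 and 0.0691, and without the replicate block 0.184. Ptbp3 did not differ past the threshold (0.04 ± 0.08, edgeR adjusted p = 0.82). Of 33 hnRNP and SR splicing factor genes, 9 were lower and 0 higher (median -0.14), a count of 5, 2 and 4 without pools 1, 2 and 3 in turn and of 0 without the replicate block. Hnrnpk, an RNA- and DNA-binding hnRNP, was at 914, 985, 1171 and 1104 CPM in light zone and 1152, 1173, 1383 and 1284 CPM in dark zone libraries (-0.26 ± 0.04, edgeR adjusted p = 0.00255, and 0.0912 without the replicate block). Of 28 interferon-stimulated genes, 2 were higher and 1 lower (median 0.24). Irf9, part of the complex that interferon activates, was higher (0.47 ± 0.10, edgeR adjusted p = 0.0108), and the lower one was the exonuclease gene Isg20 (-0.61 ± 0.18, edgeR adjusted p = 0.0445). Isg20 was not called without cKO pool 2, 3 or 4 (adjusted p = 0.195, 0.182 and 0.0542), without control pool 1, 2 or 4 (adjusted p = 0.0636, 0.0522 and 0.0603) or without the replicate block (adjusted p = 0.0609).

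The remaining lists gave the following counts. Of 23 G1 cyclins and inhibitors, 8 were lower and 0 higher, with 5 lower without pool 1 and 2 without pool 2. Of 20 replication-dependent histone genes, which share sequence and whose mRNAs mostly lack poly(A) tails, 7 were lower and 0 higher, with 4 lower without pool 2 and 3 without pool 3. Of 14 genes of the MYC, MAX and MXD network, 3 were higher and 1 lower, and of 18 AU-rich element and decay genes, 3 were higher and 2 lower. Of 19 p53 targets, 2 were higher and 4 lower, and the lower count was 1 without pool 1 and 0 without pool 2 or pool 3.

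Beyond the lists, the largest changes among abundant genes named other functions. After Ccr6, Egr2 and Hhex, the large rises included Serpinb1a, an inhibitor of neutrophil proteases, at 156, 197, 98.9 and 103 CPM in light zone and 21.8, 46.6, 23.9 and 12.5 CPM in dark zone libraries (2.49 ± 0.24, edgeR adjusted p = 0.000124). Lifr, a receptor of leukaemia inhibitory factor (2.39 ± 0.37, edgeR adjusted p = 0.00181), Lrrc32, which presents latent TGF-beta (2.23 ± 0.16, adjusted p = 2.49e-05), and Bhlhe40, a transcription repressor (2.19 ± 0.20, adjusted p = 9.03e-05), were also higher. So were Cfp, the complement regulator properdin, Snn, the kinase gene Camkk1 and Coq8a, of coenzyme Q synthesis, at 2.19, 2.19, 1.99 and 1.95. Their edgeR adjusted p-values were 1.54e-05, 1.61e-05, 0.000132 and 1.54e-05.

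Among the largest falls, Reln, a secreted matrix protein best known from neurons, was at 1.67, 8.31, 16.1 and 13 CPM in light zone and 52, 64.8, 85.2 and 62.8 CPM in dark zone libraries. Lgr5, a receptor of R-spondins, was at 4.31, 5.88, 7.46 and 7.97 CPM in light zone and 32.4, 34.6, 41.5 and 28.2 CPM in dark zone libraries, and Selenop, the selenium carrier selenoprotein P, at 93.8, 108, 103 and 148 CPM against 367, 439, 404 and 505 CPM. These 3 were lower without overlap (-3.02 ± 0.37, -2.44 ± 0.20 and -1.93 ± 0.08, edgeR adjusted p = 0.000475, 5.66e-05 and 1.18e-06). Tifa, an adaptor of TRAF6, Rgcc, a regulator of the cell cycle, Mnd1, a meiotic recombination protein, and the sodium channel gene Scn8a were at -2.05, -1.96, -2.30 and -2.22 (edgeR adjusted p = 2.53e-05, 1.54e-05, 0.000346 and 0.000438). Chst1, a sulfotransferase of carbohydrates, was at -2.30 (edgeR adjusted p = 0.000597, and 0.0639 without the replicate block). Gm12678, a long non-coding RNA gene in RefSeq, was at -1.96 (edgeR adjusted p = 5.63e-05). Prss34, a protease of mast cells and basophils, was at 0, 0.12, 6.87 and 0 CPM in light zone and 0.0306, 27.7, 146 and 48.6 CPM in dark zone libraries (-6.19 ± 0.77, edgeR adjusted p = 0.000803). It was high in the dark zone libraries of pools 2, 3 and 4 and near 0 in that of pool 1, and was not called without the replicate block (adjusted p = 0.174). With 2 light zone libraries at 0, its fitted difference depends on the prior count. Prg2, the eosinophil major basic protein, Pycr1, of proline synthesis, and Bhlha15, a factor of secretory cells, had their highest levels in the dark zone libraries of pools 2 and 3 (-2.27, -1.88 and -1.86, edgeR adjusted p = 0.00217, 0.00882 and 0.0441). Without pools 2 and 3 the adjusted p was 0.0745 for Prg2, 0.249 for Pycr1 and 0.565 for Bhlha15. Without pool 2 alone Pycr1 (adjusted p = 0.0513) and Bhlha15 (adjusted p = 0.185) were not called, nor was Bhlha15 without pool 3 (adjusted p = 0.172), and without the replicate block Prg2 (adjusted p = 0.0767) and Bhlha15 (adjusted p = 0.125) were not. The macrophage-expressed gene Hmox1, heme oxygenase 1, was lower in each pool (-1.85 ± 0.21, edgeR adjusted p = 0.00037).

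Other cell types were read through their markers in all 8 libraries. T cell markers summed to 544, 794, 627 and 390.2 CPM in light zone and 495, 565, 347 and 386 CPM in dark zone libraries, with 8 of 18 higher and 1 lower, although CD3e-bearing cells had been depleted. The count of higher markers was 2 without the replicate block and 2 without pools 2 and 3. In control mice 13 were higher and 1 lower. Lck, a T cell kinase, was at 146, 189, 173 and 104 CPM against 99.4, 101, 67.3 and 68 CPM (0.86 ± 0.12, edgeR adjusted p = 0.00106), and Cd3d at 16.2, 30.7, 26.1 and 7.91 CPM against 12.1, 14.3, 5.44 and 2.53 CPM (1.34 ± 0.26, edgeR adjusted p = 0.0062, and 0.27 without the replicate block). Pecam1, on the list of stromal cells and also present on B cells, rose by 0.85 ± 0.09 (edgeR adjusted p = 0.000167). The part of T cells in the lists of T cell help and immediate early genes was not tested. Macrophage markers summed to 712, 1098, 463 and 853 CPM in the light zone libraries of pools 1 to 4. In the dark zone libraries they summed to 1107, 1926, 358 and 1224 CPM. Their median difference was -1.09, with pool medians of -2.01, -1.30, 0.32 and -1.19, and it was 0.76 in control mice. Of 19 markers, edgeR called 1 lower and 0 higher, DESeq2 5 lower and 1 higher, and limma-voom 9 lower and 1 higher. NK cell markers summed to 95.6 to 353 CPM in light zone and 119 to 353 CPM in dark zone libraries. Dendritic cell markers summed to 1169 to 1339 CPM in light zone and 923 to 1023 CPM in dark zone libraries, with a median difference of -0.24. Irf8 and Flt3, which B cells also express, held 1137 to 1265 and 877 to 949 CPM of these sums. The other 10 markers summed to 37.3, 74.3, 32.6 and 33.2 CPM in the light zone libraries of pools 1 to 4 and 46.9, 87.4, 45.8 and 35.0 CPM in the dark zone libraries, lower in the light zone of each pool. This split was made after the values were seen. Neutrophil markers summed to 27.8 to 59.7 and 51.1 to 93.0 CPM, erythroid markers to 60.6 to 172 and 65.4 to 99.4 CPM and platelet markers to 18.5 to 36.1 and 33.8 to 47.3 CPM. The stromal and follicular dendritic list summed to 134 to 186 CPM in light zone and 67.3 to 110 CPM in dark zone libraries, and Pdgfra, Ccl19 and Ccl21a of it had no count in any cKO library.

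The same zone comparison was made in control mice, which lack Cre. In control mice 2186 genes (13.8%) were called, 1194 higher (7.56%) and 992 lower (6.28%) in light zone cells, and 1349 were called without control pool 1. Of the 2810 genes called in cKO, 1572 were also called in control (55.9% of cKO calls and 71.9% of control calls), 1569 with the same sign and 3 with opposite signs. Of all 2810, 2726 had the same sign in control. Over 9022 genes with an average log2 CPM of at least 3, the differences of the genotypes correlated at Pearson's r = 0.82, and over all 15789 genes at r = 0.37. Both describe genes from pools that shared sort days. The difference of the zone effects, tested as an interaction in the same edgeR fit, was called for 0 of 15789 genes (0.0%). An unadjusted p under 0.05 was found for 1013, a count that includes those expected by chance. DESeq2 called 38 genes and limma-voom 0 for the same difference, and edgeR called 1 without control pool 3.

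**Figure D5:**
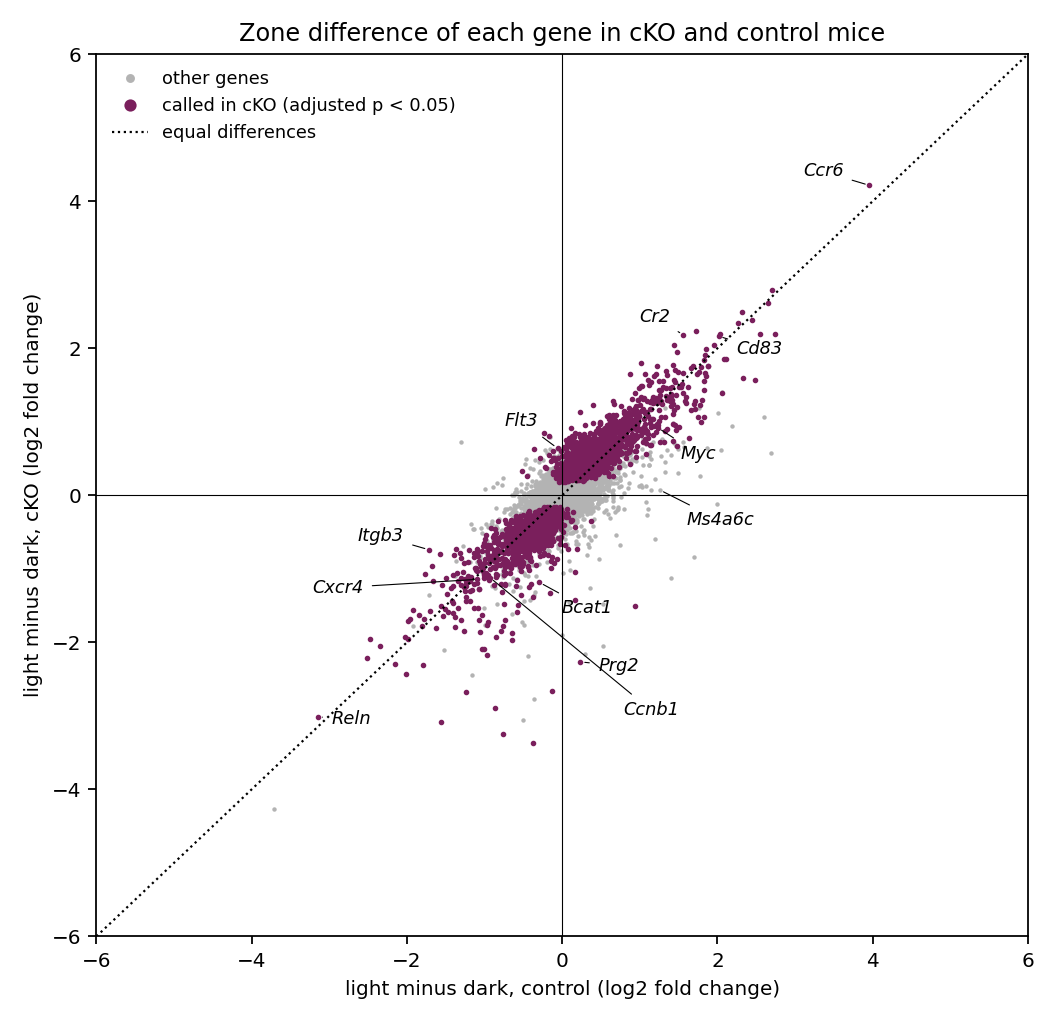
Light minus dark zone difference of each gene in cKO mice (vertical axis) against control mice (horizontal axis), in log2 units, for 9022 genes with an average log2 CPM of at least 3, with genes called in cKO in purple and the line of equal differences dotted. Ccr6, Cr2, Cd83 and Reln lie far from 0 on both axes, while Flt3, Bcat1, Prg2 and Ms4a6c lie off the line, and Prss34, at -6.19 in cKO and -9.58 in control, falls outside the axes.

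The genes with the smallest p for this difference were not called, and are given by their values in each genotype. Flt3, a cytokine receptor of haematopoietic progenitors, was at 145, 123, 111 and 119 CPM in light zone and 94.8, 74.9, 75.1 and 75.4 CPM in dark zone cKO libraries, and at 67, 56.3, 48.5 and 54.8 CPM in light zone and 60.1, 59.1, 56.2 and 59.5 CPM in dark zone control libraries. In cKO the zones were apart (0.64 ± 0.07, edgeR adjusted p = 0.00026), and in control they overlapped (-0.06 ± 0.07, edgeR adjusted p = 0.658). The difference between genotypes was 0.70 ± 0.10 (edgeR unadjusted p = 3.89e-05, adjusted p = 0.14). Bcat1, an enzyme of branched-chain amino acid breakdown, was at 20.8, 16.9, 37.5 and 23.2 CPM in light zone and 46.2, 45.7, 75.9 and 51.1 CPM in dark zone cKO libraries, and at 31.1, 25.2, 38 and 31.3 and 40.4, 29.6, 40.7 and 43.4 CPM in control light and dark zone libraries. Its light minus dark difference was -1.18 ± 0.10 in cKO and -0.29 ± 0.10 in control. Ms4a6c, a membrane protein of the MS4A family, was at 0.07 in cKO and 1.25 in control, and Itgb3, the integrin beta 3 chain, at -0.74 and -1.72. The integrin was lower in light zone cells in both genotypes (edgeR adjusted p = 0.000857 in cKO, 0.0758 there without the replicate block, and 9.48e-06 in control).

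For the other 6 genes of the 10 with the smallest p, among genes with an average log2 CPM of at least 3, the differences in cKO and control were 0.84 and -0.24 for Dnajc27, 0.51 and -0.05 for Dennd3, 0.58 and 0.06 for Sp100 and 0.49 and 0.07 for Prkd2. They were 0.26 and -0.45 for Tcp11l2 and 0.32 and -0.52 for Kidins220. The signs were opposite in the genotypes for Dnajc27, Dennd3, Tcp11l2 and Kidins220. Dnajc27 and Dennd3 were not called in control (edgeR adjusted p = 0.203 and 0.641). In cKO, Tcp11l2 and Kidins220 were near the threshold (edgeR adjusted p = 0.0466 and 0.0378). Without the replicate block neither was called there (adjusted p = 0.527 and 0.561), and their calls were lost in 15 and 11 of 21 alternatives. The adjusted p of the difference was 0.14 for 9 of the 10 genes and 0.359 for Prkd2. Of genes described above, Cr2 was at 2.18 in cKO and 1.56 in control, with an unadjusted edgeR p of 0.000651 for the difference and an adjusted p of 0.467. Myc was at 0.92 in cKO and 1.23 in control, and its difference between genotypes was -0.31 ± 0.12 (edgeR unadjusted p = 0.0305, adjusted p = 0.753).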

How the data were processed

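The authors deposited 1 table of raw read counts per gene for each library, with 47729 gene IDs, of which 47224 were paired with a symbol. RNA was amplified with a SMART-Seq v4 kit from 2 ng, per the labels' protocols. Reads were processed with Trim Galore 0.4.2, HISAT2 and HTSeq on GRCm38, per the submitters' processing notes; no source used here gives the annotation release or whether counting used strand, so overlapping and antisense genes cannot be separated. The HTSeq summary lines, 41.4% to 49.8% of all counts in the cKO libraries, were left out. Replicates are pools of mice, and no 2 cKO libraries of a zone agreed within counting noise (chi-square per degree of freedom 28.2 to 167).

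Genes were kept by filterByExpr with a minimum count of 10 and fitted with edgeR 4.0.16 (R 4.3.3, TMM scaling, robust quasi-likelihood) over all 16 mRNA libraries, with 1 term per pool and a zone effect in each genotype. Light and dark zone cells of a pool came from the same mice. Their deviations from the zone means correlated at 0.19, 0.31, 0.33 and 0.22 in pools 1 to 4. SE is the log2 difference divided by the square root of F, and pool differences use a prior count of 2. On simulated data the fit called 86% of zone changes of 1 log2 unit in cKO and 44% of changes of 0.5, with 6 false calls. Only 200 genes were changed there, none of them of low level, and only in cKO. As 2810 genes were called in the data, these shares do not give the power of this comparison. Alternatives were other scalings and filters, DESeq2 1.42.0, limma 3.58.1, no replicate block, the cKO libraries alone, no immunoglobulin genes, 1 sex, and each pool left out. Leaving out cKO pools 2 and 3, or their dark zone libraries, was chosen after seeing the data.

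The comparison and the 38 gene lists (768 symbols, 2 unmatched) were chosen with earlier results of these data known. Genes were named by a rule. It took the 15 largest called changes in each direction with an average log2 CPM of at least 3 and 1 sign in 4 pools. It also took key genes and up to 4 called members of each list per direction by p. For the difference between genotypes the rule took called genes, of which there were 0. The 10 genes with the smallest p for it were given outside the rule. The text gives part of these, and further genes (among them Pttg1, Kif4 and Kif11) were named after their values were seen. Positions are those of RefSeq GRCm38.p6. Some members of the lists are counted but not reported singly here.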

Additional observations from a re-analysis of the deposited data

Results flagged for a closer look

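Within each zone the 4 cKO libraries of each named gene were examined for 1 library far from the other 3. Of 262 such groups, 10 held one, and chance gives about 1 in 20. In the dark zone library of pool 3, Ptbp2 was at 290.0 CPM (others 182 to 195), Fas at 150.0 CPM (others 115 to 120) and Slamf7 at 353 CPM (others 275 to 278). In the dark zone library of pool 1, Bcl6 was at 218 CPM (others 263 to 267), Bcl2l11 at 55.1 CPM (others 69.5 to 72.2), Pes1 at 95.6 CPM (others 102 to 103) and Flt3 at 94.8 CPM (others 74.9 to 75.4). In the dark zone library of pool 4, Lifr was at 2.74 CPM (others 5.29 to 5.62). In the light zone library of pool 3, Prss34 was at 6.87 CPM (others 0 to 0.12) and Odc1 at 204 CPM (others 141 to 150).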

How the results depend on the processing

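No called gene of the 118 named as called changed direction under any of 21 alternatives, and 60 kept their call under all of them. Without the replicate block, 1436 genes were called in cKO (776 higher, 660 lower) and 1183 in control (657 higher, 526 lower). In males alone the counts were 877 in cKO (440 higher, 437 lower) and 537 in control (324 higher, 213 lower). In females alone they were 558 in cKO (333 higher, 225 lower) and 447 in control (241 higher, 206 lower). The 8 cKO libraries alone gave 2079 calls (1133 higher, 946 lower). In that fit 35 mitosis, 18 DNA replication and 10 oxidative phosphorylation genes were lower. The lower counts were 4 for G1 cyclins and inhibitors, 2 for hnRNP and SR genes and 0 for p53 targets. Of light zone genes, 29 were higher. Without cKO pools 2 and 3 there were 805 calls in cKO (437 higher, 368 lower). Without the dark zone cKO libraries 2 and 3 and with no block there were 732 in cKO (449 higher, 283 lower) and 1147 in control (682 higher, 465 lower). The higher genes made up 49.5% of cKO calls, 59.7% in females alone and 61.3% in that last fit. The fits in 1 sex, on the 8 cKO libraries and without pools 2 and 3 use fewer samples. For both fits without the block the cause was not tested. Leaving out 1 pool gave 1710 to 2686 calls in cKO (932 to 1386 higher, 778 to 1300 lower), 1349 to 2452 in control (730 to 1278 higher, 609 to 1174 lower) and 0 to 1 for the difference between genotypes. For the difference between genotypes DESeq2 called 38 genes, and edgeR 1 without control pool 3.

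Differences that changed sign were of genes not called. Ptbp1 was at 0.011 in females. Ptbp3 was at -0.029 in males, -0.017 to 0.15 without 1 cKO pool, -0.013 without pool 4 and -0.053 without pools 2 and 3. Bcl6 was at -0.17 in males, -0.069 to 0.093 without 1 cKO pool and -0.024 without pool 3. Irf4 was at 0.44 in males, -0.46 to 0.13 without 1 cKO pool, 0.044 without pool 4, 0.29 without pools 2 and 3, and 0.75 without their dark zone libraries and the block. Ms4a6c was at -0.014, -0.023 and -0.034 in males, without pools 2 and 3, and without their dark zone libraries and the block, and Kif4 was at 0.11 in females. A p over the threshold does not show equal levels.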
